A study of Mus musculus with 19 samples.

Results

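The genes described here are 7 genes tied to the parathyroid fate of the pharyngeal pouch: *Gcm2*, *Gata3*, *Casr*, *Pth*, *Ibsp*, *Sparcl1* and *Cryba2*. They were taken by name from a table of 54179 genes, of which 21964 are protein-coding, and all 7 were found. The cells were wild type EPCAM+PLET1+ cells, sorted singly by flow cytometry from microdissected C57BL/6 mouse primordia at E10.5 (the third pharyngeal pouch) and E12.5 (the thymic primordium) into the wells of 96-well plates, with 4 plates per stage in the table of read counts (a to d for E10.5, and for E12.5 the plates named a, c, d and e). No transgene or treatment was used in either group. The question addressed was which of the 7 genes were already on in E10.5 cells, and which were found only at E12.5, in parathyroid cells or in the other cells of the primordium. After the cell filter 356 E10.5 cells and 355 E12.5 cells remained. E12.5 cells with at least 2000 CPM (reads of a gene scaled to a common total of protein-coding reads per cell) of *Chga*, which encodes the secretory granule protein chromogranin A and is not one of the 7 genes, were called parathyroid cells, giving 42 parathyroid cells (12, 15, 9 and 6 in plates a, c, d and e) and 313 other E12.5 cells.

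The parathyroid glands and the thymus arise from a shared primordium in the third pharyngeal pouch, in which the transcription factor *Gcm2* marks the dorsal, parathyroid domain and *Foxn1* the ventral, thymic domain. *Gcm2* is required for parathyroid development, *Gata3* is a zinc finger transcription factor that acts with it, *Casr* encodes the calcium-sensing receptor through which blood calcium controls secretion, and *Pth* encodes parathyroid hormone. *Ibsp* encodes bone sialoprotein, an acidic protein of mineralised matrix, *Sparcl1* a matricellular protein related to SPARC, and *Cryba2* a beta-crystallin, best known from the lens.

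Since the transcription factors and their candidate targets were compared across the same cells, the promoter windows of *Gcm2*, *Gata3*, *Casr* and *Pth* are shown, from 250 bases before to 50 bases after the RefSeq start of each gene (GRCm38.p6, all on the minus strand, written 5′ to 3′ along the gene). Capitals mark matches to a GATA motif, spelled AGATAA or AGATAG or TGATAA or TGATAG and searched on both strands. The windows are chr13:41109939-41110238 for *Gcm2*, chr2:9878551-9878850 for *Gata3*, chr16:36562085-36562384 for *Casr* and chr7:113388524-113388823 for *Pth*. Those of *Gcm2* and *Gata3* lie inside the gene spans given below, downstream of the 5′ end of each span.
*Gcm2*: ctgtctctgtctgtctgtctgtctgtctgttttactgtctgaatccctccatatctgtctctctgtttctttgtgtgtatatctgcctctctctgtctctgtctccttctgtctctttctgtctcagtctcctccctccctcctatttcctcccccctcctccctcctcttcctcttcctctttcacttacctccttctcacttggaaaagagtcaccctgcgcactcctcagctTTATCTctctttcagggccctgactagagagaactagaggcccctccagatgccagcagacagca
*Gata3*: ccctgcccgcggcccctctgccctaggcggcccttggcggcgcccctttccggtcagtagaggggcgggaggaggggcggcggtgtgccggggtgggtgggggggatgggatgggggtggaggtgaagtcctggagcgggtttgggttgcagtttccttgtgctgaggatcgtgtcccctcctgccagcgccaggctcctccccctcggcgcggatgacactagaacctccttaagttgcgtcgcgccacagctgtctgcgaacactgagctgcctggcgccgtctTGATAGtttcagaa
*Casr*: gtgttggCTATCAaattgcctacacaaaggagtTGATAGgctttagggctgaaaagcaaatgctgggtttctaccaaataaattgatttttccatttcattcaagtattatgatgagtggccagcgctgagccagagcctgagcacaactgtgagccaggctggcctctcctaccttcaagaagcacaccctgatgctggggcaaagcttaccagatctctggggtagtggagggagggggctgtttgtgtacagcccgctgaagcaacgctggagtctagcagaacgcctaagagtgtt
*Pth*: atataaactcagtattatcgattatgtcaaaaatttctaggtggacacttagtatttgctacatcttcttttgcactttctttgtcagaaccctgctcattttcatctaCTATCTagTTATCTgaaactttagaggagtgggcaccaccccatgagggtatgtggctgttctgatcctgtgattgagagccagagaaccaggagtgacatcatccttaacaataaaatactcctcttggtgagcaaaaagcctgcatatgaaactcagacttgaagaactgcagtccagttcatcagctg

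The windows of *Gcm2* and *Gata3* held 1 match each and those of *Casr* and *Pth* held 2 each, whereas those of *Ibsp* and *Cryba2* held none. Of 32851 promoter windows of the same length, 9778 (29.8%) held at least 1 match and 2552 (7.77%) at least 2. The GCM motif ATGCGGGT, searched in the same way, was in none of the 6 windows and in 84 (0.256%) of all windows. *Sparcl1* was not among the windows. The matches are a description of these letters and were not tested against expression.

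Plates held between 14981265 and 20106286 reads. The median number of reads per cell was 133388 at E10.5, 144085 in parathyroid cells and 174811 in other E12.5 cells, and the median number of molecules in the first sequencing run, after the error correction called DBEC, was 3896, 2103 and 3184. Plate a at E10.5 stood apart with a median of 1305 molecules. The *Chga* gate fell in a wide gap, with the lowest cell inside it at 4952 CPM, the next at 12593 CPM, and the highest E12.5 cell outside it at 687 CPM. No E10.5 cell reached it, the highest being 1294 CPM. The labels do not say whether plates came from separate litters, so that the p values below measure the spread between plates, and cells were never counted as replicates. Parathyroid sums enter the first and the second comparison below, other-cell sums the first and the third, and E10.5 sums the second and the third, so the comparisons are not independent of each other.

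The gated cells held little of the thymic markers. The thymic epithelial markers *Foxn1*, *Psmb11*, *Prss16*, *Ccl25* and *Pltp* summed to between 41.2 and 160 CPM per plate in parathyroid cells, against 6625 to 7226 CPM in the other cells, and no parathyroid cell held a molecule of *Foxn1* or *Psmb11*. A molecule of at least 1 of the 5 markers was present in 7 of 42 parathyroid cells (16.7%). No erythroid marker had a read in parathyroid cells, and 8 neural markers summed to between 6.54 and 58.5 CPM per plate. One of the 42 wells, on plate a, held molecules of all 5 haematopoietic markers (*Ptprc*, *Cd52*, *Coro1a*, *Tyrobp* and *Fcer1g*; 28 molecules), and was also the deepest at 367021 reads. Results that rest on it are given with and without it.

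Against the other E12.5 cells, 6 of the 7 genes were higher in parathyroid cells by edgeR's quasi-likelihood test, at an adjusted p under 0.05 over all genes tested, and *Casr* missed that threshold. By the same rule 1.81% of 9839 genes were higher. Against E10.5 cells 7 of 7 genes were higher, where 1.75% of 9855 genes were, although the call for *Casr* was lost in 12 of 19 alternative settings. In the first comparison 815 genes were called in all, 178 higher and 637 lower, and 284 when the plate, which both classes share, was added as a block, with the same number of 6 genes called among the 7. Genes near 0 outside parathyroid cells passed the filter on low counts through the parathyroid sums, so these counts of the 7 genes are a description.

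*Gcm2* (chr13:41101427-41111035, minus strand) was measured at both stages. In E10.5 cells it stood at 11.1, 18.8, 2.31 and 6.06 CPM in plates a, b, c and d. In parathyroid cells it stood at 381, 353, 166 and 109 CPM in plates a, c, d and e, a mean of 252 ± 135 CPM (SD, n = 4 plates). In other E12.5 cells it was 0.0693, 0, 1.75 and 1.24 CPM in the same plates. The parathyroid plates lay above all others without overlap, and the E10.5 plates lay above the other cells of these 4 E12.5 plates. In the other cells of E12.5 plate b, which is not in the tests, *Gcm2* stood at 22 CPM, above every E10.5 plate, with a molecule in 1 cell. The log2 fold change was 8.04 ± 1.37 (SE) against other cells (adjusted p = 0.0103) and 4.56 ± 0.77 against E10.5 cells (adjusted p = 0.0112), both by edgeR's quasi-likelihood test. The first call was lost without plate a, d or e at E12.5, with adjusted p between 1.17e-11 and 0.0813 over all alternatives, and the second without plate d at E10.5 (adjusted p = 0.0540). Between other E12.5 cells and E10.5 cells the log2 difference of *Gcm2* was -3.53 ± 1.41, which did not pass the test (adjusted p = 0.210).

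By molecules, *Gcm2* was found in the first run in 32 of 42 parathyroid cells (76.2%, 95% exact binomial interval 60.5% to 87.9%), in 8 of 356 E10.5 cells (2.25%, 0.975% to 4.38%) and in 2 of 313 other E12.5 cells (0.639%). The intervals cover counting error only. With each cell thinned to 2000 molecules, which left out 82 E10.5, 20 parathyroid and 76 other cells as too shallow, the shares were 68.2% of 22 parathyroid cells, 0.365% of 274 E10.5 cells and 0.422% of 237 other cells. At this depth E10.5 cells and other E12.5 cells differed by less than the counting error for *Gcm2*, while the parathyroid cells stayed far above both. The plot of shares shows the same 3 classes for every gene.

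**Figure D1:**
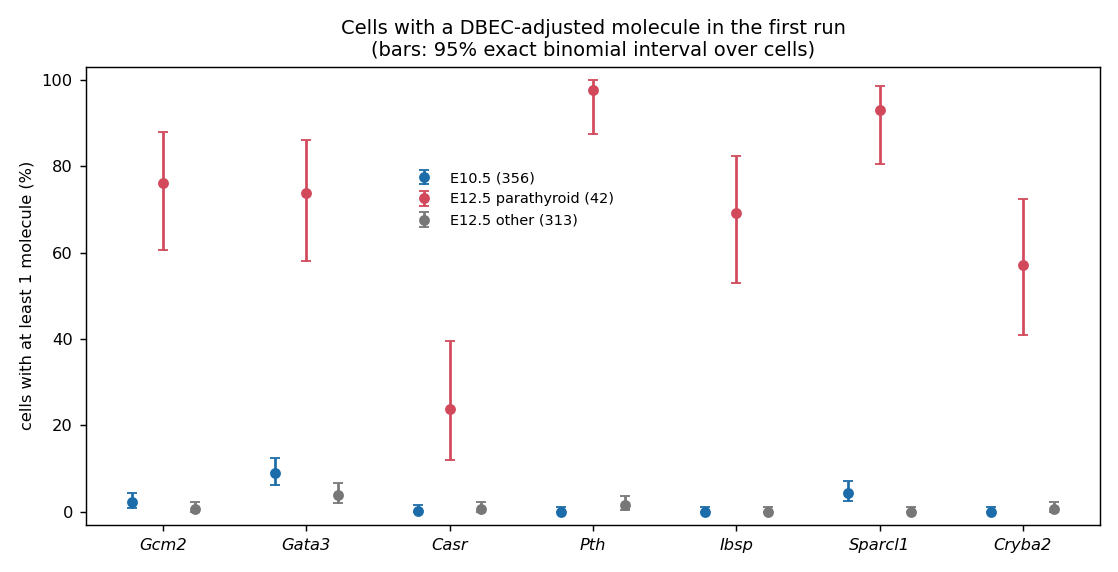
Share of cells (%) with at least 1 DBEC-adjusted molecule of each gene in the first sequencing run, for E10.5 (356 cells), parathyroid (42) and other E12.5 cells (313), with bars for the 95% exact binomial interval over cells. *Pth*, *Ibsp* and *Cryba2* sit at 0 of 356 E10.5 cells, and *Gata3* has the highest E10.5 share, 8.99%.

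*Gata3* (chr2:9857078-9890034, minus strand) was the member with a molecule in the most E10.5 cells of the first run, though not after thinning. It stood at 23.5, 23.6, 16 and 8.91 CPM in E10.5 plates a to d. In parathyroid plates a, c, d and e it stood at 676, 425, 474 and 181 CPM (mean 439 ± 203, SD, n = 4 plates). In other E12.5 cells it was 3.19, 1.69, 7.14 and 12.9 CPM. The parathyroid plates were apart from both other classes, and the E10.5 and other E12.5 plates overlapped. *Gata3* was higher in parathyroid cells than in other cells (log2 fold change 5.86 ± 0.80, adjusted p = 0.00313) and than in E10.5 cells (4.47 ± 0.52, adjusted p = 0.00133) by edgeR's quasi-likelihood test, the first call being lost without plate d (adjusted p = 0.0507, from 9.00e-14 to 0.0507 over all alternatives). The difference between other E12.5 cells and E10.5 cells was -1.43 ± 0.74 on the log2 scale and did not pass (adjusted p = 0.357). A molecule of *Gata3* was present in 32 of 356 E10.5 cells (8.99%, interval 6.23% to 12.45%), 31 of 42 parathyroid cells (73.8%, 58.0% to 86.1%) and 12 of 313 other cells (3.83%). Thinned to 2000 molecules the E10.5 share was 3.28%, the same as that of *Sparcl1* (9 of 274 cells each), and the parathyroid share 45.5%. The exons of *Gata3* share 155 bases (3.90%) with the antisense gene *Gm13256* and 77 bases (1.94%) with *9230102O04Rik*, and whether the counting used strand is not given in the sources used here, so that a part of its reads could belong to either neighbour.

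*Casr* (chr16:36493696-36562141, minus strand) was found in the fewest parathyroid cells. It was 48.3, 8.61, 45.3 and 161 CPM in parathyroid plates a, c, d and e (mean 65.7 ± 65.8, SD, n = 4 plates), 0, 0, 2.95 and 0.691 CPM in other E12.5 cells, and 0, 1.28, 0 and 0 CPM in E10.5 plates a to d. The parathyroid plates did not overlap with either of the other classes, but they spread widely among themselves. Against other cells the log2 fold change was 5.99 ± 1.89 and did not pass (adjusted p = 0.0950, from 1.47e-04 to 0.386 over all alternatives, of which 4 of 15 passed). Against E10.5 cells it was 7.48 ± 2.03 (adjusted p = 0.0465, edgeR's quasi-likelihood test), and this call was lost on leaving out any one of the 8 plates. The well with haematopoietic markers held 57 of the 96 *Casr* reads of plate a, and without it *Casr* stood at 24.1 CPM there and the call against E10.5 cells was lost (adjusted p = 0.0551). A molecule was found in 10 of 42 parathyroid cells (23.8%, 12.1% to 39.5%), 2 of 313 other cells and 1 of 356 E10.5 cells. All 17 *Casr* reads of the E10.5 plates came from that single cell.

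*Pth* (chr7:113385580-113388570, minus strand) was found in nearly every parathyroid cell. It stood at 12703, 13351, 7020 and 13048 CPM in plates a, c, d and e (mean 11531 ± 3019, SD, n = 4 plates). In the other cells of the same plates it was 14.8, 8.31, 6.33 and 15.8 CPM, and in E10.5 plates a to d it was 0, 3.55, 0.0857 and 0.418 CPM. The parathyroid plates were higher than both by far more than the spread between plates. The log2 fold change of *Pth* was 9.83 ± 0.49 against other cells (adjusted p = 2.91e-06) and 13.27 ± 1.45 against E10.5 cells (adjusted p = 8.91e-04), both by edgeR's quasi-likelihood test. Both are ratios of reads. Of the 209 other E12.5 wells with a *Pth* read 204 held no molecule after DBEC, and the E10.5 reads all came from repeat runs. A molecule of *Pth* was found in 41 of 42 parathyroid cells (97.6%), in 5 of 313 other cells (1.60%) and in 0 of 356 E10.5 cells. By 3 counts of the total, that allows up to 0.843% of cells with a molecule at this depth, and does not limit how many cells expressed the gene.

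*Ibsp* (chr5:104299171-104311469, plus strand) and *Sparcl1* (chr5:104079111-104113733, minus strand) are both matrix protein genes. *Ibsp* stood at 5720, 6425, 3457 and 5036 CPM in parathyroid plates a, c, d and e, at 1.18, 1.94, 0.439 and 1.93 CPM in other cells, and at 0, 1.58, 0.0857 and 0.278 CPM in E10.5 plates a to d. *Sparcl1* stood at 2084, 2202, 2025 and 2076 CPM in the parathyroid plates, at 1.25, 2.26, 1.25 and 1.10 CPM in other cells, and at 1.83, 26.9, 69.5 and 15.7 CPM in E10.5 plates. *Sparcl1* thus varied little between parathyroid plates (SD 75.2 CPM on a mean of 2097) and widely between E10.5 plates (SD 29.2 on a mean of 28.5). The log2 fold changes against other cells were 11.70 ± 0.60 for *Ibsp* (adjusted p = 3.44e-06) and 10.33 ± 0.38 for *Sparcl1* (adjusted p = 1.27e-07, edgeR's quasi-likelihood test). Against E10.5 cells they were 13.13 ± 1.18 for *Ibsp* (adjusted p = 2.28e-04) and 6.03 ± 0.90 for *Sparcl1* (adjusted p = 0.00614). All 4 are ratios of reads. The 76 *Ibsp* and 82 *Sparcl1* reads of other cells left 0 molecules after DBEC, and the E10.5 reads of *Ibsp* all came from repeat runs.

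Molecules of *Ibsp* were present in the first run in 29 of 42 parathyroid cells (69.0%) and in 0 cells of either other class. An *Ibsp* read was present in 40 of 42 parathyroid cells, and a plate a cell with 174 *Ibsp* reads kept 0 molecules. The molecule share is thus a low count of the parathyroid cells with *Ibsp*. *Sparcl1* was present in 39 of 42 parathyroid cells (92.9%), in 0 of 313 other cells and in 16 of 356 E10.5 cells (4.49%, 2.59% to 7.20%). Between other E12.5 cells and E10.5 cells 5 of the 7 genes were tested and 1 was called, *Sparcl1*, which was lower in other E12.5 cells (log2 fold change -4.34 ± 0.96, adjusted p = 0.0214, edgeR's quasi-likelihood test), where 2.59% of 11346 genes were lower. *Casr* and *Cryba2* were below the filter in that comparison. The call for *Sparcl1* was lost in 7 of 17 alternatives, with adjusted p from 1.16e-05 to 0.495, and the plates overlapped, E10.5 plate a (1.83 CPM) lying below plate c of the other cells (2.26 CPM).

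*Cryba2* (chr1:74889934-74893143, minus strand) stood at 665, 1142, 1541 and 1186 CPM in parathyroid plates a, c, d and e (mean 1134 ± 360, SD, n = 4 plates). In other cells it was 0.139, 7.91, 0.188 and 6.56 CPM, and in the E10.5 plates it was 0 except for plate b (0.0754 CPM, a single read). The parathyroid plates did not overlap with the rest, and in other cells plates c and e stood above plates a and d. *Cryba2* was higher in parathyroid cells than in other cells (log2 fold change 8.08 ± 1.32, adjusted p = 0.00781, edgeR's quasi-likelihood test), a call lost without plate c or e, with adjusted p up to 0.0674 over all alternatives. A molecule was found in 24 of 42 parathyroid cells (57.1%), 2 of 313 other cells and 0 of 356 E10.5 cells. The plot of single-cell levels shows the 7 genes side by side.

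**Figure D2:**
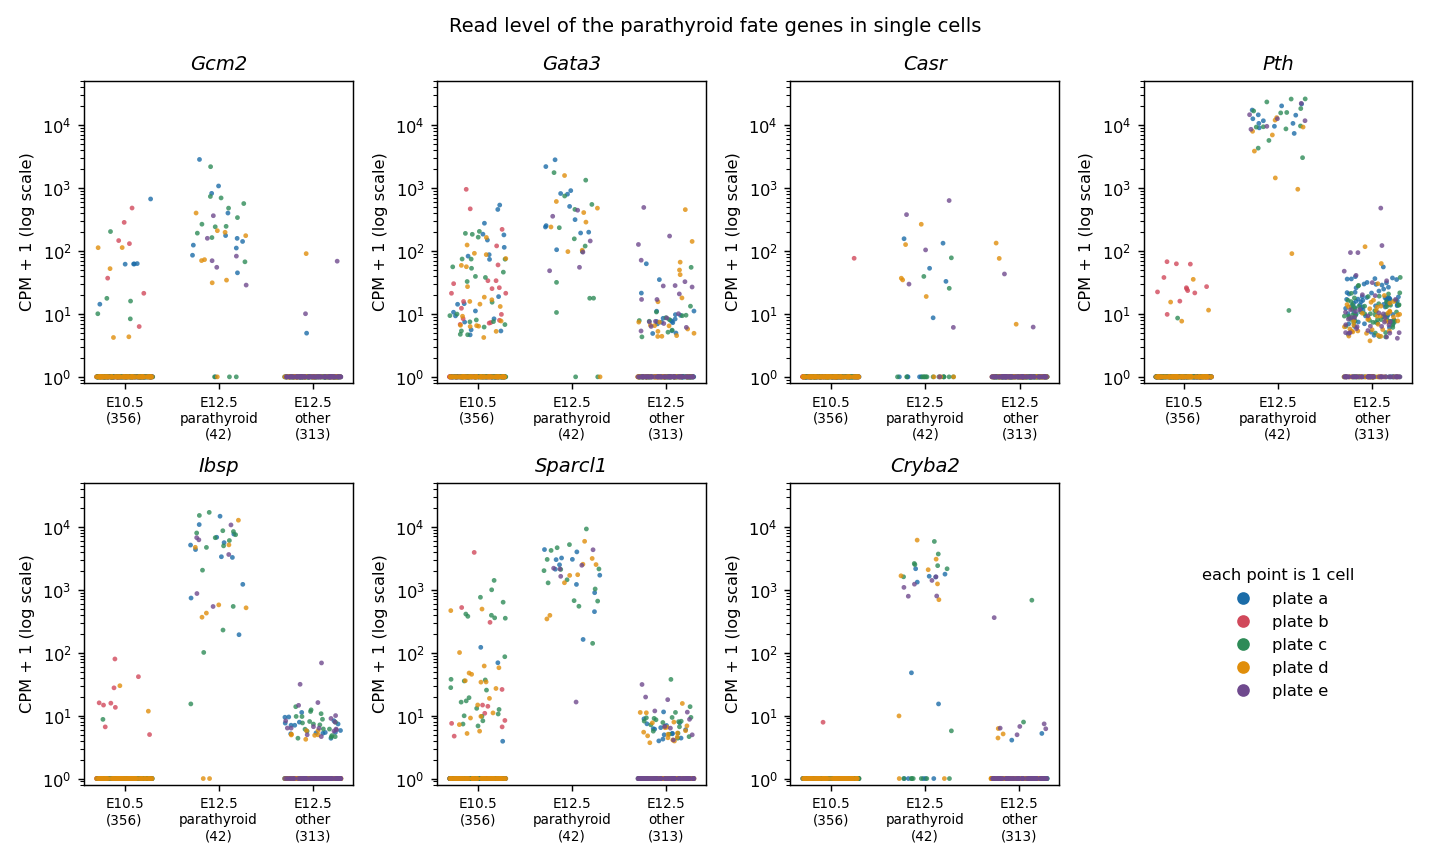
CPM + 1 (log scale) of each gene in every cell, by class, with 1 point per cell coloured by plate. In other E12.5 cells *Pth* forms a band of low values in 209 of 313 cells, whereas *Gcm2* has a read in 4 of 313 cells.

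In the first run of each E10.5 plate there were 0 reads of *Pth*, *Ibsp* and *Cryba2* among 25460920 reads of the cells kept. In parathyroid cells their first-run levels were 11935 CPM for *Pth*, 5435 CPM for *Ibsp* and 1141 CPM for *Cryba2*. Many reads can come from 1 molecule, so the bounds are given by DBEC molecules, of which the E10.5 cells held 1445679 in the first run and 0 of these genes. With a floor of 3 molecules over the whole group, the share of molecules in parathyroid cells was at least 11301-fold higher for *Pth* (2577 molecules), at least 316-fold higher for *Ibsp* (72 molecules) and at least 329-fold higher for *Cryba2* (75 molecules). These bounds cover counting error only. The E10.5 reads of these genes, 54 of *Pth*, 26 of *Ibsp* and 1 of *Cryba2*, all came from repeat runs. *Gcm2*, *Gata3* and *Sparcl1* were different in this respect, with 216, 446 and 617 reads in the E10.5 first runs.

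The position of the wells was then compared between plates. In the repeat run of E10.5 plate b, 47 *Pth* reads lay in 12 wells, and 12 of 12 had the position of one of the 13 wells of E12.5 plate a with at least 2000 CPM of *Chga*. The 21 *Ibsp* reads of the same run lay in 9 wells, and 9 of 9 were at such positions. In the repeat run of E10.5 plate d, 6 *Pth* reads lay in 4 wells, and 4 of 4 had the position of one of the 7 *Chga*-high wells of E12.5 plate e. *Gcm2* in the repeat run of plate b lay in 7 wells, 1 of them at a position of E12.5 plate a and 3 at those of plate e. *Sparcl1* in the same run lay in 11 wells, 6 of them at positions of E12.5 plate a, against 4 wells with 2 there in the first run. For *Gata3* these numbers were 15 wells with 4 there and, in the first run, 16 wells with 1 there. In the first run of plate b, 4 of the 6 wells with *Gcm2* reads (64 of 120 reads) were at the 7 *Chga*-high positions of plate e. Those 7 positions held 0 *Pth* and 0 *Chga* reads in that run, whereas the 4 matching wells of E12.5 plate e held 9589 *Pth* and 84 *Gcm2* reads. Of the 13 E10.5 cells with a *Gcm2* molecule over both runs, 1, 3, 2 and 3 were at *Chga*-high positions of the E12.5 plates, in their order from a to e, where 50, 66, 36 and 28 of all 356 E10.5 cells were. Whether position had a part in the E10.5 levels of *Gcm2*, *Gata3* and *Sparcl1* was not tested. The remaining E10.5 read of *Pth*, on plate c, also lay at a *Chga*-high position of E12.5 plate a. The labels do not say which plates were sequenced together. These 17 wells with *Pth* also carried DBEC molecules, 53 for 54 reads, so that the DBEC adjustment did not remove them when both runs were added.

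**Figure D3:**
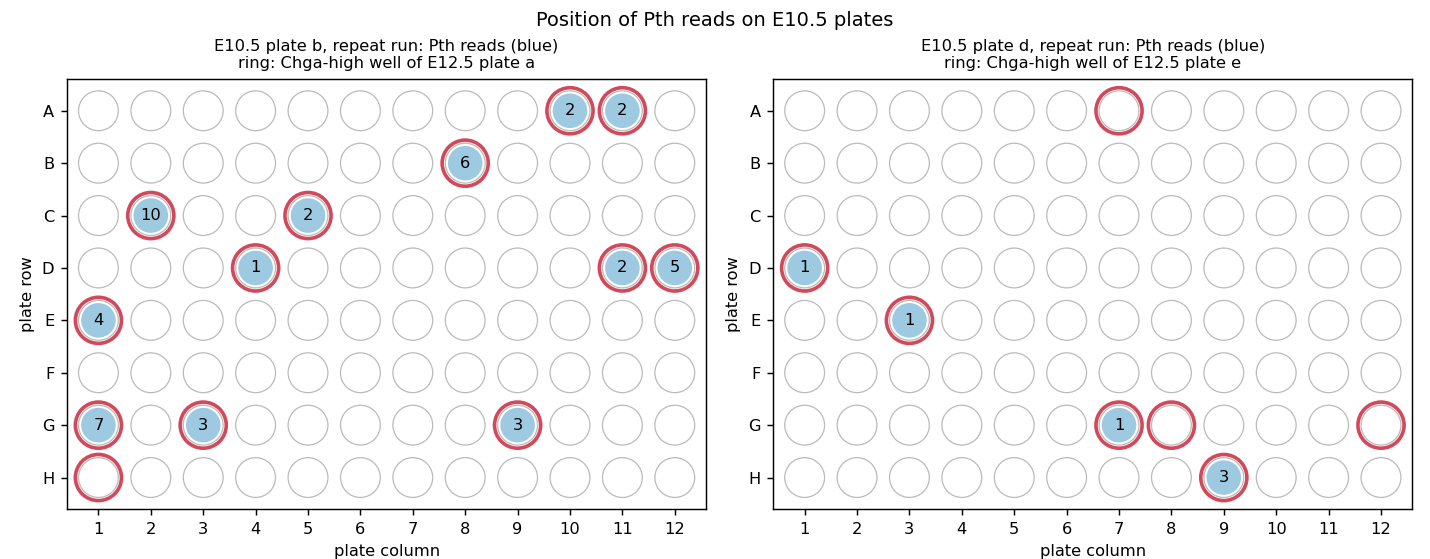
Plate maps (rows A to H, columns 1 to 12) of the repeat runs of E10.5 plates b and d, with the number of *Pth* reads written in blue wells and red rings around positions that are *Chga*-high in E12.5 plate a (left) or e (right). Each of the 12 and 4 wells with a *Pth* read lies inside a ring.

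Within E12.5 plates, reads and molecules gave different pictures of the other cells. *Pth* reads were found in 71 of 79, 56 of 75, 44 of 76 and 38 of 83 other wells of plates a, c, d and e, together 209 of 313 wells (66.8%). A *Pth* molecule after DBEC was left in 0, 0, 2 and 3 of these wells, so that 97.6% of the wells with a read (204 of 209, 95% exact interval 94.5% to 99.2%) had none. The *Pth* reads in other wells were 647, against 79101 in parathyroid wells, and made up 0.811% of the gene's E12.5 reads. They gave 1.31 reads per molecule before adjustment, against 9.66 in parathyroid wells. *Ibsp* (1.10 against 39.0) and *Sparcl1* (1.06 against 14.8) showed the same contrast, with 76 and 82 reads outside parathyroid wells and 0 molecules after DBEC. No other well held more than 8 *Ibsp* reads, whereas a parathyroid well with 174 also kept 0 molecules. For *Ibsp*, 0 molecules after DBEC therefore cannot by itself tell misassigned reads from expression. *Gcm2* (3.13 against 8.68) and *Gata3* (3.38 against 10.9) were nearer to each other.

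By this measure the share of molecules outside parathyroid wells at E12.5 was 0.351% for *Pth*, 0 for *Ibsp* and *Sparcl1*, 2.61% for *Cryba2*, 6.61% for *Gcm2*, 14.8% for *Casr* and 18.4% for *Gata3*. For *Gata3* 29 molecules in 14 other wells remained after DBEC, 20 of them on plate e, where 43.5% of its molecules lay outside the parathyroid wells. At E10.5, reads per DBEC molecule were 17.9 for *Gcm2*, 10.9 for *Gata3* and 22.8 for *Sparcl1*, and 1.02 for *Pth*, 1.53 for *Ibsp* and 1 for *Cryba2*. In parathyroid cells the same ratio ran from 13.4 for *Casr* to 202 for *Ibsp*, with 15.6 for *Gcm2* and 14.0 for *Pth*.

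**Figure D4:**
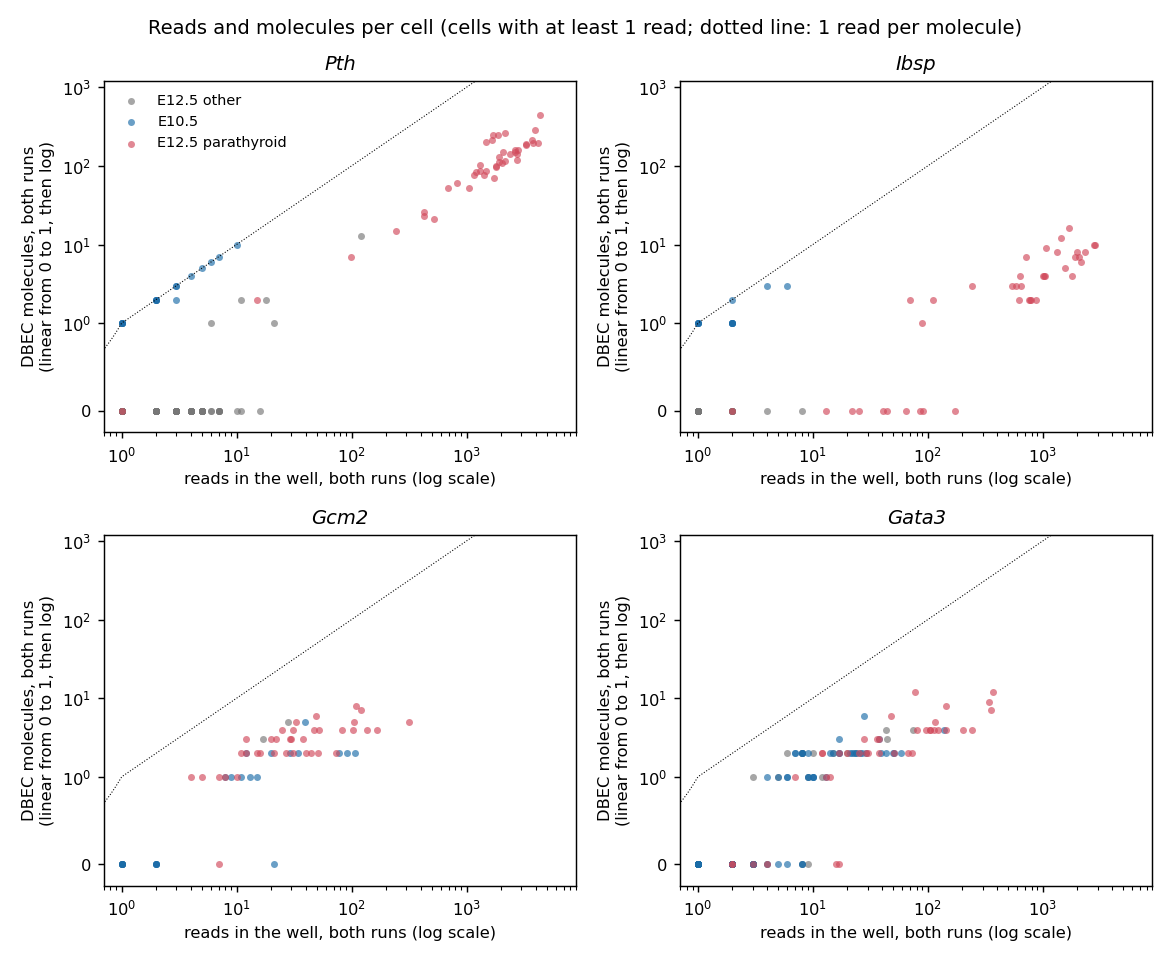
Reads (log scale) against DBEC molecules (linear from 0 to 1, then log) over both runs, with 1 point per cell that has a read, for *Pth*, *Ibsp*, *Gcm2* and *Gata3*, where the dotted line marks 1 read per molecule. E10.5 cells lie on that line for *Pth* (1.02 reads per molecule) and well to its right for *Gcm2* (17.9), and most other E12.5 cells with *Pth* reads lie at 0 molecules.

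A *Gcm2* molecule over both runs was found in 13 E10.5 cells (5, 4, 1 and 3 in plates a to d), 8 of which had one in each run. None of the 13 was among the 82 E10.5 wells with neural transcripts (*Tubb3*, *Nefl* and *Nefm* together at 2000 CPM or more), and 11 of 13 held an *Epcam* molecule. The 13 cells were deeper than the 343 others, with a median of 225181 reads against 132571, and the part of depth in what follows was not tested. *Gata3* was found in 4 of the 13 cells (30.8%, against 10.1% of all E10.5 cells) and *Casr* in 1, the plate b cell that held all E10.5 reads of *Casr*. *Pth*, *Ibsp*, *Sparcl1*, *Cryba2* and the thymic regulator *Foxn1* were found in 0 of 13. Over both runs molecules of these genes were rare at E10.5, so that 0 of 13 cannot show a difference. *Sparcl1* and *Pth* had them in 17 of 356 cells each, *Ibsp* in 12, *Cryba2* in 1 and *Foxn1* in 8 of the 343 negative cells. Those of *Pth*, *Ibsp* and *Cryba2* all came from repeat runs, with 0 of 356 cells in the first run. Only 1 of the 13 cells had 5 *Gcm2* molecules, and the others had 1 or 2, against a highest count of 8 in parathyroid cells.

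*Tbx1*, a pouch transcription factor gene, was found in 6 of the 13 *Gcm2*-positive cells and in 51 of 343 negative cells. When reads were summed per plate (plates a, b and d, each with at least 3 positive cells), edgeR's quasi-likelihood test called 0 of 9374 genes (0.0%) between *Gcm2*-positive and negative cells, with 1356 genes at an unadjusted p under 0.05. DESeq2 called 1028 of the 9374, 19 higher and 1009 lower in positive cells. Positive and negative cells came from the same libraries, and with the plate as a block 7 genes were called. The log2 difference of *Gata3* was 0.69 ± 1.26 (adjusted p = 0.998). Sums of 3 to 5 cells limit what this comparison can show.

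At E10.5 most *Gata3* and *Sparcl1* molecules lay in cells without a *Gcm2* molecule, as did most cells of the stage. Over both runs *Gata3* was found in 36 cells, of which 4 (11.1%) were *Gcm2*-positive, against 3.65% of all E10.5 cells. These 36 cells were 31 of 274 without and 5 of 82 with neural transcripts, and its level in these cells reached 951 CPM (median 86.3). *Sparcl1* was found in 17 cells, 13 of 274 without and 4 of 82 with neural transcripts, of which 10 were on plate c, and reached 3909 CPM (median 409). *Gata3* and *Sparcl1* shared 1 cell. The highest *Sparcl1* level at E10.5 thus lay above the median of parathyroid cells (2105 CPM).

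Single parathyroid cells carried most of the 7 genes at once. Over both runs 4 of 42 cells held molecules of all 7 genes, 13 held 6, 15 held 5, 4 held 4, 5 held 3 and 1 held 2. The lowest, median and highest cell stood at 10.3, 10628 and 26003 CPM for *Pth*, at 15.4, 2105 and 9217 CPM for *Sparcl1*, and at 0, 4703 and 16913 CPM for *Ibsp*. *Gcm2* had a median of 160 CPM and a maximum of 2839, *Gata3* a median of 239 and a maximum of 2805, and *Cryba2* a median of 940 and a maximum of 6129. The median of *Casr* was 0 and its maximum 631 CPM. *Pth* and *Sparcl1* were therefore the genes with a read in each of the 42 cells.

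The parathyroid cells with the least *Pth* were not empty. A cell of plate c with 1 *Pth* read and 0 *Pth* molecules held 7 *Sparcl1* and 2 *Cryba2* molecules, with *Chga* at 15893 CPM. The cell with the lowest *Chga*, on plate d, held 2 *Pth*, 3 *Gcm2* and 11 *Sparcl1* molecules. A further cell of plate d held 7 *Pth*, 14 *Cryba2* and 6 *Sparcl1* molecules and none of *Gcm2* or *Gata3*. These cells were singled out after their values were seen. The plot of the gated cells shows them as the darker cells of the *Pth* row.

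**Figure D5:**
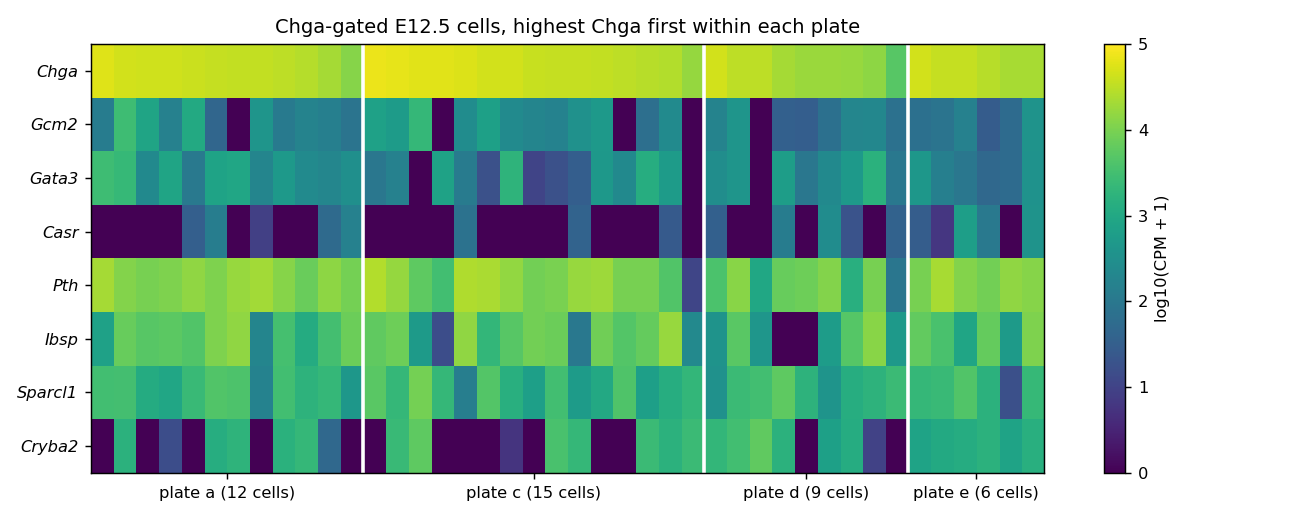
Level of *Chga* and the 7 genes, as log10(CPM + 1), in each of the 42 parathyroid cells (columns), ordered by *Chga* within plates a (12 cells), c (15), d (9) and e (6). *Pth* and *Sparcl1* fill nearly every column, *Casr* has a molecule in 10 of 42 cells in the first run, and *Cryba2* is split between cells with and without it.

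Across the 42 parathyroid cells, Pearson's r of log2(CPM + 10) was 0.41 between *Gcm2* and *Pth*, 0.33 between *Gata3* and *Pth*, 0.31 between *Gcm2* and *Ibsp* and 0.30 between *Pth* and *Ibsp*. It was -0.11 between *Sparcl1* and *Pth*, -0.17 between *Cryba2* and *Pth* and 0.04 between *Gcm2* and *Gata3*. These values describe 42 cells that share 4 libraries and differ in depth, and the weak ones are no finding.

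Over all 355 E12.5 cells, the genes most like each member were found by the same measure. For *Gcm2* they were *Pth* (r = 0.87), *Ibsp* (0.85) and *Ccl21a* (0.85), for *Gata3* they were *Pth* (0.79), *Pla2g7* (0.78) and *Ibsp* (0.77), and for *Casr* they were *Pth* (0.48), *Sparcl1* (0.48) and *Pla2g7* (0.48). For *Pth* they were *Chga* (0.93), *Sparcl1* (0.91) and *Ibsp* (0.90), and for *Ibsp* they were *Pth* (0.90), *Pla2g7* (0.90) and *Sparcl1* (0.89). For *Sparcl1* they were *Chga* (0.92), *Ccl21a* (0.91) and *Pth* (0.91), and for *Cryba2* they were *Sparcl1* (0.73), *Flrt2* (0.72) and *Pla2g7* (0.71). *Ccl21a* encodes a chemokine that attracts lymphoid progenitors and *Pla2g7* a secreted phospholipase. The pattern over all E12.5 cells is mainly that of the contrast between the 42 gated cells and the rest, and *Ccl21a* has near-identical copies in the mouse genome, so that its count is uncertain.

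Among the 313 other E12.5 cells, 22 held a molecule of at least 1 of the 7 genes over both runs, and 21 of them held a single gene. The exception was a cell of plate e with 13 *Pth*, 4 *Gata3*, 3 *Gcm2* and 2 *Cryba2* molecules, *Chga* at 351 CPM, and 5 *Foxn1* and 6 *Prss16* molecules. A cell of plate d held 5 *Gcm2* molecules and none of *Pth*, *Chga* or *Foxn1*, and passed the gate on *Tubb3*, *Nefl* and *Nefm*. In the other cells of that plate *Nefm* stood at 815 CPM, against 0.0627 for *Tubb3* and 2.38 for *Nefl*. A plate d cell with 19 *Prss16* and 2 *Foxn1* molecules passed the gate too, so at E12.5 it does not name a neural cell. Both were singled out after their values were seen.

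Genes of calcium sensing and parathyroid hormone signalling were also compared between parathyroid and other E12.5 cells. Of 14 genes 10 were tested, 3 were higher and 1 was lower, where 1.81% of all genes tested were higher and 6.47% lower. Of the 3 higher genes, *Vdr* and *Kl* were near 0 in other cells and passed the filter on low counts through the parathyroid sums. *Gnas*, the stimulatory G protein alpha subunit, stood at 13075, 12824, 6388 and 5062 CPM in parathyroid plates and at 990, 686, 443 and 365 CPM in other cells (log2 fold change 3.77 ± 0.37, adjusted p = 2.98e-04, edgeR's quasi-likelihood test). *Vdr*, the vitamin D receptor, stood at 669, 1045, 603 and 182 CPM against at most 0.323 CPM in a plate of other cells (adjusted p = 2.89e-05), and *Kl*, which encodes the FGF23 co-receptor klotho, at 84.5, 46.2, 98.2 and 37.5 CPM against at most 0.0807 CPM (adjusted p = 0.00304). *Vdr* and *Kl* had no molecule in any other E12.5 cell. At E10.5 they had a molecule over both runs in 0 of the 13 *Gcm2*-positive cells and in 1 and 2 of the 343 negative cells. In the first run they had none in any of these cells. *Trpc1*, a cation channel gene, had no read in the parathyroid plates and between 14.9 and 26.8 CPM in other cells (adjusted p = 0.0301). The genes *Pth2r*, *Pthlh*, *Men1* and *Calb1* were below the filter.

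Among pouch transcription factors, *Pax1* (log2 fold change -2.0), *Foxn1* (-7.66) and *Isl1* (-5.42) were lower in parathyroid cells by edgeR's quasi-likelihood test in the same comparison, and *Hoxa3*, *Eya1*, *Six4*, *Pax9* and *Tbx1* did not pass it. Of 12 genes of secretory processing 6 were tested, with *Chga*, which set the gate, and *Cpe*, a carboxypeptidase that trims prohormones (log2 fold change 3.04 ± 0.76, adjusted p = 0.0353), higher and *Pcsk2* lower.

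*Sparcl1* and *Ibsp* lie in one cluster of secreted calcium-binding phosphoprotein genes on chromosome 5, together with *Dspp*, *Dmp1*, *Mepe* and *Spp1*. *Spp1*, which encodes osteopontin (chr5:104435118-104441050, plus strand), stood at 361, 339, 116 and 64.1 CPM in parathyroid plates a, c, d and e and at most at 0.807 CPM in other cells (log2 fold change 9.76 ± 1.52, adjusted p = 0.00641, edgeR's quasi-likelihood test), and was found in 9 of 42 parathyroid cells. *Dmp1* and *Mepe* had no read in any class, and *Dspp* had reads on parathyroid plate d only (6.29 CPM). *Ibsp* and *Spp1* passed the filter on low counts through the parathyroid sums, and *Dmp1*, *Mepe* and *Dspp* did not pass it. The neighbouring genes *Nudt9*, *Hsd17b11* and *Pkd2* were not called (adjusted p = 0.0673 for *Nudt9*, the nearest to the threshold). Among relatives of the 7 genes, *Sparc* was higher (log2 fold change 1.75 ± 0.30, adjusted p = 0.0101), and *Gcm1*, *Gata1*, *Gata2*, *Gata4*, *Gata5*, *Gata6*, *Cryba1*, *Cryba4*, *Crybb1* and *Crybb2* had no read in parathyroid cells.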

How the data were processed

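Single EPCAM+PLET1+ cells of 4 plates per stage were analysed. With the BD Precise WTA pipeline 2.0 the authors sorted reads by well, ran STAR against GRCm38.p6 (per the file headers, with GENCODE vM18; the submitters' processing notes name GRCm38.p5) and deposited read counts and molecule counts (raw, RSEC- and DBEC-adjusted) for 19 sequencing runs. Each plate of the deposited table of raw read counts equalled the sum of 2 runs of that plate, and the E12.5 plate b, which had a single run, was left out of the tests. Well misassignment at demultiplexing, and molecules counted once in each run, can both change low values, so shares are given for the first run.

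Cells were kept with at most 50% mitochondrial reads, 40000 to 400000 reads and 500 to 5000 features of protein-coding genes, which left out 22 of 733 wells. Wells were filled by single-cell sorting and no doublets were called. Reads were summed per plate and class (at least 3 cells) and compared with edgeR 4.0.16 (TMM, filterByExpr, robust quasi-likelihood fit; limma 3.58.1; Benjamini-Hochberg adjustment, threshold 0.05). DESeq2 1.42.0 was an alternative, as were other size factors, no filter on low counts, DBEC molecules, no cell filter, other *Chga* gates (1000 and 5000 CPM), leaving out each plate, and the replicate block. Intervals are Clopper-Pearson. R 4.3.3 and Python 3.11.15 (matplotlib 3.10.9, scipy 1.17.1, pandas 2.3.3, numpy 2.4.6) were used. Gene positions are those of GENCODE vM21 (GRCm38) and promoter windows those of RefSeq.

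The parathyroid and other sums of a plate share a library, so plates pair these classes by design, although their deviations hardly correlated (r from 0.030 to 0.066). Plates likewise pair the *Gcm2*-positive and negative sums (r from 0.058 to 0.163). Letters do not pair the stages (r from -0.022 to 0.059). On simulated data edgeR recovered 81.7% of genes set to change 8-fold and 3.08% of those set to change 2-fold between parathyroid and other cells (9784 genes). For *Gcm2*-positive against negative cells it recovered 66.2% and 0% (9270 genes). The simulated counts had the same dispersion for every gene, not estimated from these sums, so the rates hold for that setting only. In the data *Gcm2* itself, which set these groups, differed by 7.59 ± 1.59 on the log2 scale. It was not called by edgeR's quasi-likelihood test (adjusted p = 0.121).

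The 7 genes and all gene lists were chosen with earlier results of these data known. Beside the 7 genes, the text names list genes past the threshold between parathyroid and other cells (at most 15) and, for each of the 7 genes, the 3 genes most correlated with it. Some genes of these lists are not reported here. No authors' comparison columns were used.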

Additional observations from a re-analysis of the deposited data

Results flagged for a closer look

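Each of the 7 genes was checked in the 4 plates of each class for a plate far from the others (Dixon's test at the 95% level). Of 21 groups 5 held such a plate. Where all other plates are at 0, as for *Casr* and *Cryba2* at E10.5, the remaining plate is flagged whatever its value. The count therefore cannot be set against the 1 in 20 groups that the test level gives. *Casr* (1.28 CPM), *Pth* (3.55 CPM) and *Cryba2* (0.0754 CPM) were highest in E10.5 plate b. For *Casr* and *Cryba2* the other plates were at 0, all *Casr* reads came from 1 *Gcm2*-positive cell, and the *Pth* and *Cryba2* reads came from the repeat run at positions that were *Chga*-high in E12.5 plate a. *Pth* in parathyroid cells was lowest in plate d (7020 CPM). *Sparcl1* in other E12.5 cells was highest in plate c (2.26 CPM), with 0 molecules after DBEC.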

How the results depend on the processing

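Between parathyroid and other E12.5 cells, 815 genes became 1319 with DESeq2 (469 higher, 850 lower), 330 without a filter on low counts, 284 with the replicate block, 543 on DBEC molecules (274 higher, 269 lower) and 104 to 139 without 1 plate. Against E10.5, 833 genes became 1419 with DESeq2 (519 higher, 900 lower), 420 without the filter, 82 with the block, 480 on DBEC molecules (245 higher, 235 lower) and 99 to 718 without 1 plate. Between other E12.5 cells and E10.5, 724 genes became 1256, 201 with the block and 442 to 765 without 1 plate. Leaving out a plate leaves fewer sums, and the cause of the other shifts was not tested.

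Of the 7 genes, 4 to 6 stayed called against other cells without 1 plate, where between 104 of 9871 and 139 of 9940 genes were called. Against E10.5 it was 5 or 6, where between 99 of 8914 and 718 of 11115 genes were. Between other E12.5 cells and E10.5 1 of the 7 genes was called, but 2 with DESeq2 (1256 of all 11346 genes) or the first runs alone (679 of 10698). It was 0 with the block (201 of 11374), on DBEC molecules (799 of 7651) or at a *Chga* gate of 5000 CPM (713 of 11349). Without 1 plate it was 0 to 1, where between 442 of 11654 and 765 of 11797 genes were called. *Pth*, higher in other E12.5 cells by reads, and *Gcm2*, lower there, gained a call in 1 alternative each. Of the other wells with a *Pth* read, 97.6% held no *Pth* molecule. Between *Gcm2*-positive and negative E10.5 cells, 0 of 9374 genes became 1028 of 9374 with DESeq2 (19 higher, 1009 lower), among them *Gcm2* and *Sparcl1* of the 7 genes. There was 1 without the filter, 7 with the block and 1 when cells with any *Gcm2* read counted as positive. On DBEC molecules 5 of 2530 genes were called (1 of the 7 genes, *Gcm2*). *Sparcl1* had a molecule in 0 of the 13 positive cells, which cannot show a difference. The grouping itself fixed the difference of *Gcm2* there. With the block, the calls of *Casr* against E10.5 (adjusted p = 0.246) and *Sparcl1* between other E12.5 cells and E10.5 were lost, beside those of *Kl* and *Spp1* against E10.5. Pairing by letter is not given by the design between stages.

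Genes with a molecule in any E10.5 cell numbered 4 in the first run, but 7 by reads and 7 over both runs. Wells of other cells with *Pth* reads but no molecule were 97.6%, and 0% with raw or RSEC-adjusted molecules, where each read leaves a molecule by construction. With other size factors the median log2 fold change over all genes tested was 0.02 in place of -0.18 against other cells, and 0.02 in place of -0.13 against E10.5. Of the values of single genes under the alternatives, 558 kept their side of the threshold or stayed within their interval, 35 shares of cells moved beyond it, 33 lost and 9 gained a call, and none reversed. Alternatives on the first run, single wells and molecules in each run were chosen after seeing the data. With at least 2 *Gcm2* molecules as the rule for positive cells, 2 plates remained and 0 of 9885 genes were called. Depth limits the E10.5 shares, and parathyroid sums held 6 to 15 cells.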

Other observations

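Plate b at E12.5, which is not in the table of read counts and was sequenced in 1 run, held 12 cells past the *Chga* gate and 75 other cells. In the 12 cells *Pth* stood at 9945 CPM, *Ibsp* at 5670, *Sparcl1* at 2519, *Cryba2* at 1584, *Gata3* at 1415, *Gcm2* at 333 and *Casr* at 157 CPM. A molecule was found in 12 of 12 cells for *Pth*, 11 for *Gata3*, 9 for *Sparcl1*, 8 for *Ibsp*, 7 for *Gcm2*, 5 for *Cryba2* and 1 for *Casr*. In the 75 other cells *Pth* reads were found in 42 wells and a *Pth* molecule in 1. *Gcm2* stood at 22 CPM there, with 128 reads and a molecule in 1 cell, and *Cryba2* at 33.2 CPM, with 2 molecules in 1 cell.

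Among E10.5 cells *Pax8*, a transcription factor gene of the thyroid lineage, had a molecule in 10 of the 17 *Sparcl1*-positive cells and in 61 of 339 negative cells (18.0%). On plate c, which held 10 of the 17, it was found in 7 of 10 and in 19 of 75 negative cells (25.3%). The pair of genes was chosen after its values were seen. Of the other thyroid markers listed, *Tg* had no read in E10.5 cells, and *Tshr* stood at 1.19, 0.377, 0 and 0 CPM in plates a to d. *Pax8* alone does not name these cells.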
